A study of Mus musculus with 9 samples.

Results

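The E2F transcription factors and the pocket proteins that bind them were followed through every probe the array carries for E2f1 to E2f8, Rbl1 and Rbl2. The probes were found by gene symbol or synonym in the scanner files, which gave 10 genes and 19 probes out of 41174 probes for genes. All 10 genes had at least 1 probe well above background and were among the 16736 genes tested, and 16 of the 19 probes were kept. RNA was measured on 9 microarrays, each hybridised with Cy3-labelled RNA of 1 culture of 3T3-L1 preadipocytes, mouse fibroblasts that can be turned into fat cells. All cultures, controls included, had been grown in medium with 10% (by volume) fetal bovine serum and then kept without serum for 48 h. The control arrays came from untreated cells, also labelled 24 h, and the labels name no vehicle for them. Whether serum was returned for those 24 h is not stated in the labels. The other 2 groups received X-1 or X-3, which the series title calls derivatives of mangiferin, at 70 µM for 24 h, and each group had 3 arrays. The comparisons ask how each compound changed these transcripts against untreated cells and where the compounds differed from each other at the same dose and time.

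E2F proteins bind promoters of genes that cells need to copy DNA and divide, in most cases as dimers with a DP protein. E2f1, E2f2 and E2f3 are known as activators of these genes, E2f4 and E2f5 mostly repress them together with a pocket protein, E2f6 represses without one as part of a Polycomb complex, and E2f7 and E2f8 are atypical repressors that need no DP partner. Rbl1 encodes p107 and Rbl2 encodes p130, pocket proteins that hold E2f4 or E2f5 on promoters. In quiescent cells, such as cells without serum, p130 with E2f4 and the MuvB proteins forms the DREAM complex, which keeps cell cycle genes off until cyclin-dependent kinases release it. In 3T3-L1 cells E2F factors are also known for their part in the divisions that precede adipocyte differentiation.

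Several E2F and pocket protein genes are themselves E2F targets, so the 250 bases before each RefSeq transcription start (build GRCm38.p6) were searched on both strands for the E2F motifs TTTCCCGC, TTTCGCGC, TTTGCCGC and TTTGGCGC, and for TTTGAA, the cell cycle homology region (CHR) that MuvB complexes bind. For 8 of the 10 members, with 10 promoters, the table held an entry (E2f4 and E2f5 were not matched). An E2F motif was found in 3 of the 10 promoters, those of E2f3, E2f7 and Rbl1, against 1.86% of 32851 mouse promoters searched over the same 250 bases. TTTGAA was found in 4 promoters, those of E2f2 (promoter 2), E2f3 (promoter 1), E2f8 and Rbl2, against 16% of all promoters. No match overlapped another. The promoters with an E2F motif are shown with the motif in capitals, beside promoter 1 of E2f2, which rose with X-1 and held none of these letters. Each is written 5′ to 3′ on the strand of its gene and ends at the base before the start. They lie at chr13:29986064-29986313 (minus strand) for E2f3, chr10:110745189-110745438 (plus strand) for E2f7, chr2:157204535-157204784 (minus strand) for Rbl1 and chr4:136172024-136172273 (plus strand) for E2f2.
E2f3 promoter 1: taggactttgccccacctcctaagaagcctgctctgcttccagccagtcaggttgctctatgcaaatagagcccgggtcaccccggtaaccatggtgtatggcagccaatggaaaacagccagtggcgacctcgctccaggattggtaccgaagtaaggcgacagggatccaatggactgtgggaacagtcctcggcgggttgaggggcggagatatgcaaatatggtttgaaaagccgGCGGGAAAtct
E2f7 promoter: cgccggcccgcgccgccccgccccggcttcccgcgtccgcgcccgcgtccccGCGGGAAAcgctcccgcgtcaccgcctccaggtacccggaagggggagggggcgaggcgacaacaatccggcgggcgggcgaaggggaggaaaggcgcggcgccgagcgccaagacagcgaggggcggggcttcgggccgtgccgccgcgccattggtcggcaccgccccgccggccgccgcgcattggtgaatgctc
Rbl1 promoter: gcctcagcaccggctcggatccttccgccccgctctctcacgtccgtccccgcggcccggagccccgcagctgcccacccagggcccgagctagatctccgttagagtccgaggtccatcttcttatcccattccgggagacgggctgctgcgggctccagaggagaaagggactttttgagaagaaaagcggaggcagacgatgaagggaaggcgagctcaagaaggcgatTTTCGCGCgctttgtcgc
E2f2 promoter 1: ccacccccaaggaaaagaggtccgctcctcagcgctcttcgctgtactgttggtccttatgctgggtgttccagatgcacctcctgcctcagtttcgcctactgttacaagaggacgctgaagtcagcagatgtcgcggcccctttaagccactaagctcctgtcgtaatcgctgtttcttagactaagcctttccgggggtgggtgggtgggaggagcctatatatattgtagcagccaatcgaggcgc
In E2f3 the motif TTTCCCGC lay on the opposite strand, 11 to 4 bases before the start, and TTTGAA lay 23 to 18 bases before it. The E2f7 promoter held TTTCCCGC on the opposite strand much farther out, 198 to 191 bases before the start, while Rbl1 held TTTCGCGC on its own strand, 18 to 11 bases before it. The start tabled for E2f1 lay inside the span of the gene, so its window may not be the promoter in use. The same limit holds for promoter 2 of E2f2, which holds 1 of the TTTGAA matches. It lies at chr4:136180532-136180781 (plus strand), downstream of the start that follows promoter 1. A match is only a run of letters and does not show that a factor bound there.

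On the arrays 57.9% to 67.1% of spots for genes were well above background and 0 were saturated. Levels are given as log2 of the processed intensity relative to the 75th percentile of its array, and a gene is represented by its brightest kept probe. Differences were called where limma's adjusted p was under 0.05, adjusted by Benjamini-Hochberg over all 16736 genes. Same-numbered replicates shared a slide, and slide 1 was scanned on another day with another software version. On every slide control, X-1 and X-3 had positions 1, 2 and 3, so a group cannot be told apart from its position. X-3 replicate 1 stood apart from the other X-3 arrays on the second principal component (10.9% of the variance), and without it the genes called between X-3 and X-1 rose from 1764 to 3408. All differences are relative to the 75th percentile: the median over all genes was 0.06 for X-1 and 0.05 for X-3 against control, −0.15 in each with arrays scaled to their median, and −0.85 and −0.65 with slides 2 and 3 scaled to 7 spike-in probes. Among called genes 4690 were higher and 4727 lower with X-1 (3126 and 5115 with median scaling, 1516 and 10076 with spike-in scaling), and 4837 were higher and 4418 lower with X-3 (3081 and 4876, then 1841 and 8377). Whole cultures were lysed, so fewer cells in a cell cycle phase and less RNA per cell cannot be told apart.

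The labelled cell type was checked against marker lists. All 12 preadipocyte and fibroblast markers were well above background on every array, while of 8 mature adipocyte markers only Fabp4 was above background on all arrays of any group, and Lep, Cfd and Slc2a4 on none. The summed log2 level of the adipocyte list was −1.17 to −0.69 in control, −2.99 to −2.67 with X-1 and −2.56 to −2.35 with X-3. That sum followed Fabp4 (means −1.07, −3.91 and −3.56). Adipoq (−7.97, −6.07 and −5.60), Plin1 (−7.54, −6.35 and −6.04) and Retn (−7.06, −6.29 and −5.91) read higher with the compounds. Each was above background on 2 X-3 arrays and 0 control arrays. With X-1 Adipoq was above background on 1 array and Plin1 and Retn on 0, so their differences with X-1 are between values at or near background. The summed level of 5 epithelial markers moved the other way, from −3.17 to −2.97 in control to −1.61 to −1.40 with X-1 and −1.15 to −0.91 with X-3, with Krt8 above background on all arrays and Epcam and Cdh1 on none. Of 6 macrophage markers 3 were above background in every group and Ptprc, Adgre1 and Itgam were not, and the summed level was 0.77 to 0.93 in control, 0.09 to 0.17 with X-1 and 0.16 to 0.39 with X-3. Of these 3, Lyz2 was lower with the compounds (means 0.57, −1.001 and −0.96), while Csf1r (−2.24, −1.13 and −0.99) and Cd68 (−3.76, −3.03 and −2.65) were higher. Of 5 endothelial markers only Tek was above background on all arrays. Whether these shifts had a part in the E2F results was not tested.

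The 10 genes did not move together. X-1 called 9 of the 10 genes, 3 higher (E2f1, E2f2, E2f6) and 6 lower (E2f3, E2f5, E2f7, E2f8, Rbl1, Rbl2), where 56.3% of all genes tested were called, 28% higher and 28.2% lower. E2f3 counts as lower by its brightest probe (−0.43), whereas its probes 2 and 3 were called higher (2.29 and 1.69). X-3 called 5 of the 10 genes, 2 higher (E2f1, E2f2) and 3 lower (E2f5, Rbl1, Rbl2), where 55.3% of all genes were called, 28.9% higher and 26.4% lower. The median log2 difference of the 10 genes was −0.39 for X-1 and −0.18 for X-3. The groups did not overlap for 8 of the 10 genes in each of these comparisons, which share their control arrays, where 68.5% of all genes did not overlap for X-1 and 61.9% for X-3. Of the 10 genes 2 differed from control by 2-fold or more with X-1 (E2f2 higher, Rbl1 lower) and 2 with X-3 (E2f1 higher, Rbl1 lower), beside 29.9% and 27.2% of all genes called at that size. With more than 5 in 10 genes called across the array, a call alone did not set a gene of this family apart, and the members are described by size, direction and agreement between probes. The count of 9 for X-1 was the less steady, at 5 when control replicate 2, control replicate 3 or X-1 replicate 1 was left out. Of all 16736 genes 8320, 8237 and 8676 were then called, in place of 9417.

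**Figure D1:**
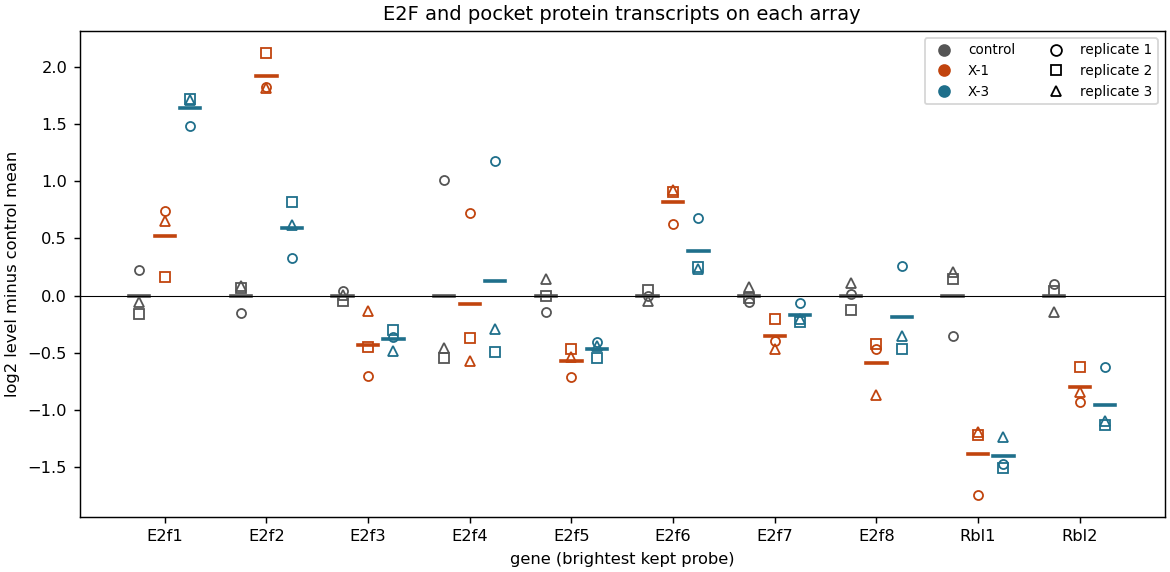
Log2 level of each gene on each array minus the mean of the 3 control arrays (vertical axis) for the 10 genes (horizontal axis), with control, X-1 and X-3 in 3 colours, replicates as 3 symbols and a bar at each group mean. E2f1 stands highest with X-3 (mean 1.64) and E2f2 with X-1 (mean 1.92), Rbl1 and Rbl2 lie below control with either compound, and for E2f4 the circles of slide 1 lie above the other symbols in every group. E2f3 is drawn at its brightest probe, and its probes 2 and 3 lie above control with either compound. With spike-in scaling E2f1 and E2f6 under X-1 and E2f2, E2f4 and E2f6 under X-3 fall below control instead.

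E2f1, an activator that drives entry into S phase, was raised most by X-3. Its brightest probe had log2 levels of −0.55, −0.94 and −0.83 on control replicates 1, 2 and 3, of −0.03, −0.61 and −0.12 on the X-1 arrays, and of 0.71, 0.95 and 0.94 on the X-3 arrays. The X-3 arrays all stood above every other array, while the lowest X-1 array lay below the highest control array. E2f1 rose by 1.64 ± 0.18 (log2, SE, n = 3 arrays per group) with X-3, a 3.12-fold difference (limma adjusted p = 7.09e-05), and within slides the difference was 1.26, 1.89 and 1.77. With X-1 it rose by 0.52 ± 0.18, or 1.43-fold (limma adjusted p = 0.0347). The X-1 call ended, at differences of 0.41 to 0.49, when either control replicate 2 or 3, or else X-1 replicate 1 or 3, was left out, and also with median scaling (0.32), and with spike-in scaling the sign turned (−0.39), the limma adjusted p running from 0.00864 to 0.23 over the 19 alternatives. The X-1 call held in 12 of the 19, and the X-3 call held in all 19 alternatives, with differences of 1.13 to 1.83. A second E2f1 probe, printed 10 times on each array, read −2.72, −3.09 and −3.03 in control, −1.67, −2.72 and −2.09 with X-1, and −1.47, −0.80 and −1.04 with X-3. It showed the same order, 1.84 ± 0.28 above control with X-3 (limma adjusted p = 0.000542) and 0.78 ± 0.28 with X-1 (limma adjusted p = 0.0391, or 0.0593 with the replicate as a block, with a range of 0.00813 to 0.43 over 18 alternatives). The X-1 call of this probe also ended when control replicate 2 or 3, X-1 replicate 1 or 3, or X-3 replicate 3 was left out, and its sign turned with spike-in scaling (−0.26). In all, this call held in 6 of the 18 alternatives.

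E2f2, also an activator, showed the reverse order of the compounds. Its probe read −1.49, −1.27 and −1.26 in control, 0.48, 0.78 and 0.48 with X-1, and −1.01, −0.52 and −0.72 with X-3. The 3 groups did not overlap, with X-3 between control and X-1. E2f2 rose by 1.92 ± 0.16 with X-1, a 3.78-fold difference (limma adjusted p = 1.11e-05), with 1.97, 2.05 and 1.73 on slides 1, 2 and 3. With X-3 it rose by 0.59 ± 0.16, or 1.51-fold (limma adjusted p = 0.012). The X-1 call held in all 19 alternatives, with differences of 0.98 to 1.97. The X-3 call ended with median scaling (0.39), and with spike-in scaling the difference was −0.06, the limma adjusted p running from 0.0026 to 0.881 over the alternatives.

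**Figure D2:**
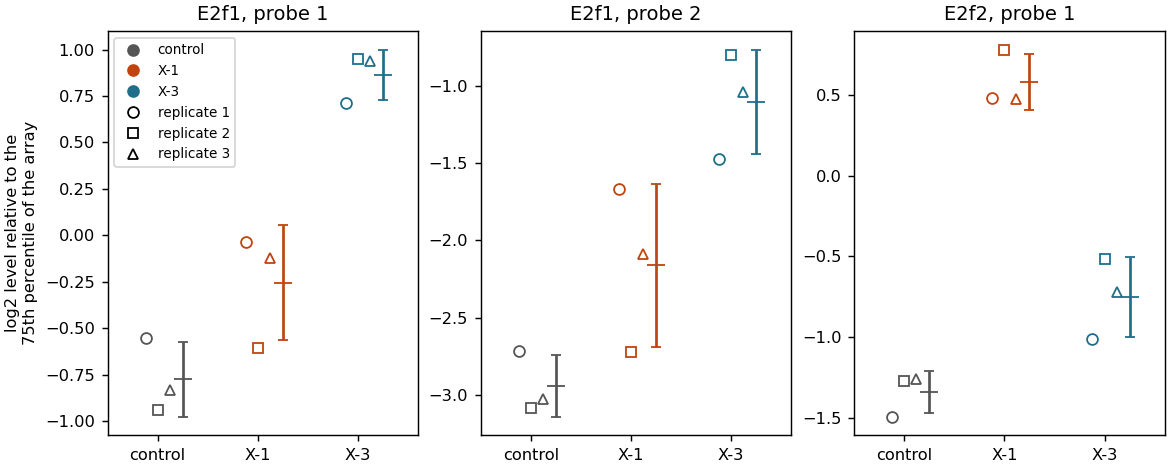
Log2 level relative to the 75th percentile of the array (vertical axes, which differ between panels) for both E2f1 probes and the E2f2 probe in control, X-1 and X-3 (horizontal axis), with 1 symbol per replicate and the mean ± SD of 3 arrays beside them. X-3 is the highest group at either E2f1 probe, whereas X-1 is the highest at the E2f2 probe (mean 0.58 against −0.75 for X-3).

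E2f3, the remaining activator, gave opposite answers at different probes. Its brightest probe read 2.46, 2.38 and 2.43 in control, 1.72, 1.97 and 2.29 with X-1, and 2.06, 2.12 and 1.93 with X-3. Every treated array lay below every control array. This probe fell by 0.43 ± 0.15 with X-1 (limma adjusted p = 0.0371) and was at −0.38 ± 0.15 with X-3, which was not called (limma adjusted p = 0.0574). The X-1 call ended with the replicate as a block (limma adjusted p = 0.0505), with slides 2 and 3 alone (−0.27), and without any 1 of control replicates 1 to 3, X-1 replicates 1 and 2 or X-3 replicate 2, and the adjusted p ranged from 1.36e-05 to 0.117 over the alternatives. Direction and call were kept in 9 of the 19 alternatives. Probe 2 read −2.26, −2.19 and −2.18 in control, 0.20, 0.16 and −0.12 with X-1, and 0.21, 0.20 and −0.02 with X-3. All 6 treated arrays thus stood far above the controls at probe 2. The difference was 2.29 ± 0.13 with X-1 (4.88-fold, limma adjusted p = 1.91e-06) and 2.34 ± 0.13 with X-3 (5.05-fold, limma adjusted p = 2.39e-06). Probe 3 read −3.36, −3.45 and −3.26 in control, −1.64, −1.63 and −1.71 with X-1, and −1.71, −1.43 and −1.51 with X-3. It too was higher on every treated array, by 1.69 ± 0.12 with X-1 (limma adjusted p = 6.2e-06) and by 1.80 ± 0.12 with X-3 (limma adjusted p = 5.75e-06). Probes 2 and 3 kept direction and call in all 18 alternatives fitted to them, and with the mean of the 3 kept probes in place of the brightest E2f3 turned to 1.18 higher with X-1 and 1.25 higher with X-3.

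The probes of E2f3 lie along the minus strand of chromosome 13 (build mm9, per the file headers), so a lower coordinate is nearer the 3′ end of the transcript. Probe 1, which fell, lies nearest the 3′ end at chr13:29998480-29998539. Probe 2 lies upstream of it at chr13:30001985-30003071 and probe 3 farther upstream at chr13:30005369-30008755, spans of 1087 and 3387 bases against 60 for probe 1, so the letters of probes 2 and 3 are split in the genome. Probe 4, at chr13:30004665-30004723 between them and matched in the files to another transcript record, was not well above background on any array. No mm9 annotation was used, so the exons and UTRs under these probes are not named, and whether the compounds changed which E2f3 transcripts were made was not tested. The E2F motif and TTTGAA shown for E2f3 lie before the start of the upstream of its 2 tabled promoters.

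**Figure D3:**
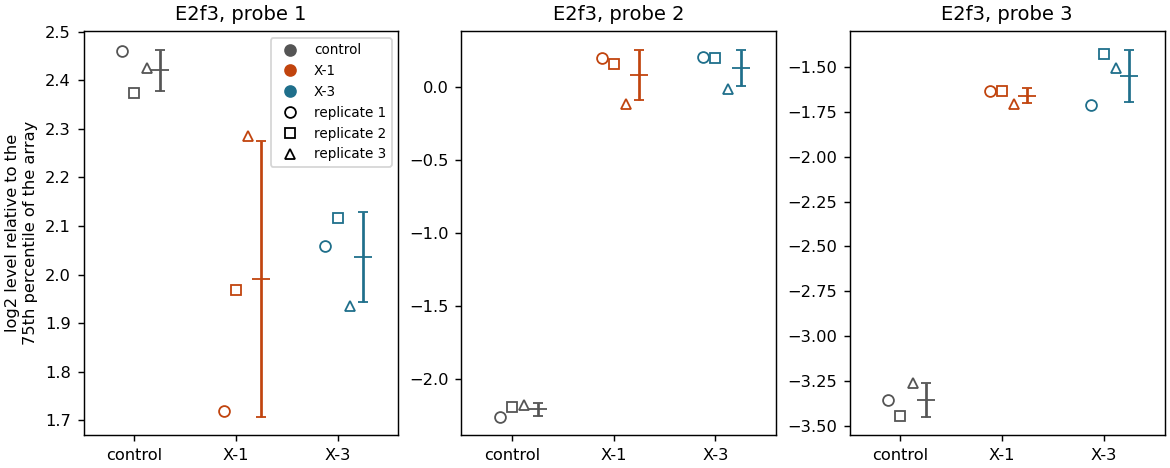
Log2 level relative to the 75th percentile of the array (vertical axes, which differ between panels) at the 3 kept E2f3 probes in control, X-1 and X-3 (horizontal axis), with 1 symbol per replicate and the mean ± SD of 3 arrays. Treated arrays lie below control at probe 1 and above control at probes 2 and 3.

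Among the repressors, E2f4, which carries most of the E2F binding activity in quiescent cells, showed no difference that passed the test. It read −1.18, −2.74 and −2.65 in control, −1.47, −2.56 and −2.76 with X-1, and −1.01, −2.68 and −2.48 with X-3. The arrays of slide 1 were the high ones in every group, so the groups overlapped and the errors were wide. Against control E2f4 was at −0.07 ± 0.57 with X-1 (limma adjusted p = 0.92, 95% confidence interval −1.36 to 1.21) and at 0.13 ± 0.57 with X-3 (limma adjusted p = 0.863, interval −1.15 to 1.42). With the replicate as a block the SE shrank to 0.14 and the gene was still not called. E2f4 was called only under spike-in scaling, and only with X-1 (−0.88, limma adjusted p = 0.00605, within a range of 0.00605 to 0.967 over the alternatives). That setting leaves out slide 1, and genes in its fit shared an SE of 0.30. Its adjusted p thus does not measure the spread of E2f4 itself.

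E2f5, the other repressor that pairs with pocket proteins, fell with each compound. It read 0.53, 0.67 and 0.82 in control, −0.04, 0.21 and 0.14 with X-1, and 0.27, 0.13 and 0.23 with X-3. No treated array reached the lowest control array. E2f5 fell by 0.57 ± 0.13 with X-1 (1.49-fold, limma adjusted p = 0.00389) and by 0.46 ± 0.13 with X-3 (1.38-fold, limma adjusted p = 0.0121). The X-1 call held in all 19 alternatives, and the X-3 call was lost only without control replicate 3 (−0.39, limma adjusted p = 0.0555, in a range of 8.22e-05 to 0.0555). Probe 2 of E2f5 gave −0.60 ± 0.14 with X-1 and −0.69 ± 0.14 with X-3 (limma adjusted p = 0.0066 and 0.00348).

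E2f6, the Polycomb-bound repressor, went up with X-1. It read 2.13, 2.19 and 2.09 in control, 2.76, 3.04 and 3.06 with X-1, and 2.82, 2.38 and 2.37 with X-3. All treated arrays stood above the controls, and among the X-3 arrays replicate 1 was far higher than the others. E2f6 rose by 0.82 ± 0.15 with X-1 (1.76-fold, limma adjusted p = 0.00161), although with median scaling this was 0.62 and not called (limma adjusted p = 0.0505) and with spike-in scaling it was −0.0046, in a range of 0.000227 to 0.99. With X-3 it was at 0.39 ± 0.15 and not called (limma adjusted p = 0.0588), with 0.69 on slide 1, 0.20 and 0.28 on slides 2 and 3, and −0.47 with spike-in scaling. The dimmer second probe gave 1.34 ± 0.31 with X-1 (limma adjusted p = 0.00606) and 0.21 ± 0.31 with X-3 (limma adjusted p = 0.594).

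The atypical repressors moved less. E2f7 read −0.98, −0.94 and −0.85 in control, −1.33, −1.13 and −1.39 with X-1, and −0.99, −1.16 and −1.13 with X-3. The X-1 arrays lay below all controls, and the X-3 arrays lay just below them. E2f7 fell by 0.36 ± 0.12 with X-1 (limma adjusted p = 0.0294) and was at −0.17 ± 0.12 with X-3 (limma adjusted p = 0.262). E2f8, the other atypical repressor, read −2.42, −2.56 and −2.32 in control, −2.90, −2.86 and −3.30 with X-1, and −2.17, −2.90 and −2.79 with X-3. The X-1 arrays were again below every control, whereas X-3 replicate 1 was above every control and its other replicates were below. E2f8 fell by 0.59 ± 0.21 with X-1 (limma adjusted p = 0.0368) and was at −0.19 ± 0.21 with X-3 (limma adjusted p = 0.468). Without X-3 replicate 1 the X-3 difference was −0.41 and was called (limma adjusted p = 0.0479, in a range of 0.000634 to 0.87). The X-1 calls rested on single arrays: that of E2f7 needed control replicates 2 and 3 and X-1 replicates 1 and 3 (−0.37 to −0.30 when 1 of them was dropped), and that of E2f8 needed all 3 controls and X-1 replicates 1 and 3 (−0.65 to −0.45). Over the 19 alternatives the X-1 call held in 14 for E2f7 and in 13 for E2f8.

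The pocket protein genes followed here, Rbl1 and Rbl2, fell with either compound. Any other pocket protein gene lay outside the set. Rbl1 (p107) read −1.005, −0.50 and −0.44 in control, −2.39, −1.87 and −1.84 with X-1, and −2.12, −2.16 and −1.88 with X-3. Every treated array lay well below every control array, and the replicate on slide 1 was low in control and X-1 alike. Rbl1 fell by 1.39 ± 0.20 with X-1 (2.61-fold, limma adjusted p = 0.000369), with −1.38, −1.37 and −1.40 on the 3 slides, and by 1.41 ± 0.20 with X-3 (2.65-fold, limma adjusted p = 0.000382). Rbl2 (p130) read 0.19, 0.13 and −0.06 in control, −0.85, −0.54 and −0.75 with X-1, and −0.54, −1.05 and −1.01 with X-3. These groups did not overlap with control either. Rbl2 fell by 0.80 ± 0.17 with X-1 (1.74-fold, limma adjusted p = 0.00297) and by 0.95 ± 0.17 with X-3 (1.94-fold, limma adjusted p = 0.00118). The calls of Rbl1 and Rbl2 held in all 19 alternatives with each compound. The second Rbl2 probe gave −0.61 ± 0.20 with X-1 (limma adjusted p = 0.0286) and −1.01 ± 0.20 with X-3 (limma adjusted p = 0.0026), and its X-1 call needed control replicate 2 and X-1 replicates 1 and 2 (−0.58 to −0.46 when 1 of them was dropped). In all, that X-1 call held in 12 of 18 alternatives, so other settings ended it too. The Rbl1 promoter shown holds an E2F motif near its start and the Rbl2 promoter holds TTTGAA 201 to 196 bases before its start.

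X-1 and X-3 were compared with each other directly as 1 pair at 70 µM and 24 h, with p-values adjusted over all genes. Of the 10 genes 2 were called, E2f1 higher and E2f2 lower with X-3, where 10.5% of all genes were called, 6.97% higher and 3.57% lower. E2f1 was 1.12 ± 0.18 higher with X-3 than with X-1, a 2.17-fold difference (95% interval 0.71 to 1.53, limma adjusted p = 0.0085), and it was higher on each slide (0.74, 1.56 and 1.06). E2f2 was 1.33 ± 0.16 lower with X-3, at a log2 difference of −1.33 or 2.51-fold (interval −1.69 to −0.97, limma adjusted p = 0.00401), again on each slide (−1.49, −1.30 and −1.20). In these 2 genes the X-1 and X-3 arrays did not overlap (30.8% of all genes did not), and the calls held in all 19 alternatives, with differences of 0.94 to 1.52 for E2f1 and −1.44 to −1.03 for E2f2. The second E2f1 probe was 1.06 ± 0.28 higher with X-3 (limma adjusted p = 0.0492, or 0.0729 with the replicate as a block, in a range of 2.42e-06 to 0.146), a call that ended without any control array, without X-1 replicate 2 or 3, and without X-3 replicate 2 or 3.

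The other 8 genes were not called between the compounds, which does not show that the compounds act alike on them. For Rbl1 the difference X-3 minus X-1 was −0.02 (interval −0.48 to 0.44) and for Rbl2 it was −0.15 (interval −0.53 to 0.22). E2f3 gave 0.05 (interval −0.30 to 0.39) at its brightest probe, and its probes 2 and 3 gave 0.05 (interval −0.25 to 0.35) and 0.11 (interval −0.17 to 0.39). E2f5 was at 0.11 (interval −0.18 to 0.39), E2f7 at 0.19 (interval −0.08 to 0.46), E2f8 at 0.40 (interval −0.07 to 0.87) and E2f4 at 0.20 (interval −1.08 to 1.49). E2f6 was at −0.43 (interval −0.78 to −0.08, limma adjusted p = 0.111), and without X-3 replicate 1 this became −0.58 and was called (limma adjusted p = 0.0167, in a range of 0.00484 to 0.364). Its second probe was at −1.12 (limma adjusted p = 0.0599), called with the replicate as a block (0.0499) and also when X-3 replicate 1 was dropped (−1.49), with adjusted p from 0.000887 to 0.166.

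Over the 16 kept probes, 7 were higher and 8 lower with X-1, where 54.8% of the 25288 kept probes were called. With X-3 5 were higher and 5 lower, where 54.1% were called, and between X-3 and X-1 2 were higher and 1 lower, where 9.07% were called. Probes of a gene agreed in direction for E2f1, E2f5, E2f6 and Rbl2 against control, and disagreed for E2f3.

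**Figure D4:**
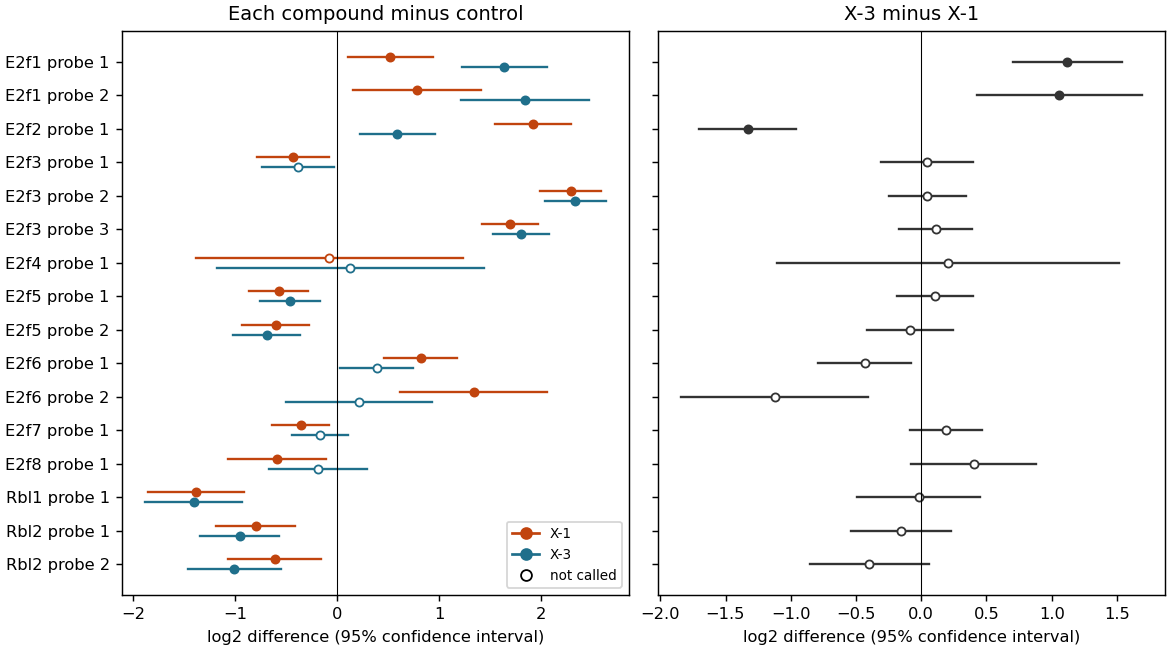
Log2 difference with its 95% confidence interval (horizontal axes) at each of the 16 kept probes (vertical axis), for each compound minus control in the left panel and for X-3 minus X-1 in the right panel; filled points were called and open points were not. The E2f3 probes split between −0.43 and 2.34, and on the right the 3 filled points are both E2f1 probes (1.12 and 1.06) and E2f2 (−1.33). With spike-in scaling both E2f1 probes and E2f6 probe 1 under X-1, and E2f2, E2f4 and both E2f6 probes under X-3, turn to the other side of 0.

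The partners of these factors were mixed. Of 9 genes for DP subunits, MuvB proteins and associated factors, 2 were higher and 3 lower with each compound (55.6% called, beside 56.3% and 55.3% of all genes), with a median log2 difference of −0.04 for X-1 and 0.03 for X-3. Tfdp2, a DP subunit, rose by 1.06 ± 0.14 with X-1 (limma adjusted p = 0.000171) and by 1.47 ± 0.14 with X-3 (limma adjusted p = 2.79e-05), calls that were lost only with spike-in scaling. Tfdp1, the other DP subunit, was at 0.10 with X-1 (−0.80 with spike-in scaling) and −0.26 with X-3. Foxm1, a forkhead factor that joins MuvB to activate mitotic genes, fell by 1.56 ± 0.13 with X-1 and by 1.43 ± 0.13 with X-3 in all alternatives. Lin52, the MuvB subunit that docks the pocket protein, fell by 0.97 ± 0.23 with X-1 and by 0.74 ± 0.23 with X-3, the latter needing control replicate 1 and X-3 replicates 2 and 3 for its call. Lin54, the DNA-binding MuvB subunit, was at 0.13 and 0.03 (−0.84 and −0.94 with spike-in scaling). The remaining calls were slight: Lin37 fell by 0.43 with X-1, Rbbp4 rose by 0.41 with X-1 (−0.34 with spike-in scaling), Lin9 fell by 0.57 with X-3 and Mybl2 (B-Myb) rose by 0.41 with X-3 (−0.34 with spike-in scaling). Each of these was lost in 5 to 12 of 19 alternatives, among them for Lin37 and Rbbp4 the leaving out of control replicate 2 or 3 or X-1 replicate 3 (also X-1 replicate 1 for Lin37 and 2 for Rbbp4), for Lin9 of any array but X-3 replicate 1, and for Mybl2 of control, X-1 or X-3 replicate 3, control or X-1 replicate 2 or X-3 replicate 1.

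Of 19 genes that act upstream of the pocket proteins in G1, 3 were higher and 7 lower with X-1 (median −0.30) and 2 higher and 7 lower with X-3 (median −0.18). That is 52.6% called with X-1 and 47.4% with X-3, beside 56.3% and 55.3% of all genes. Ccnd1, the cyclin D1 gene, fell by 2.07 ± 0.16 with X-1 and by 1.91 ± 0.16 with X-3, and Cdk6, a kinase that cyclin D activates, fell by 0.77 ± 0.14 and by 0.91 ± 0.14, the X-1 call being lost with the mean of its probes (−0.44, limma adjusted p = 0.0689). Cdkn1a, the kinase inhibitor p21, rose by 1.98 ± 0.22 with X-1 and by 2.13 ± 0.22 with X-3. Cdkn2b, the inhibitor p15, rose by 0.99 ± 0.13 and 0.93 ± 0.13, calls lost only with spike-in scaling, while Cdkn2c, the inhibitor p18, fell by 0.96 ± 0.14 and 1.38 ± 0.14. Cdkn1b, the inhibitor p27, was at 0.32 with X-1 and −0.09 with X-3 and was not called. Ccnd2 fell by 0.99 ± 0.17 with X-3 and was at −0.42 with X-1 (limma adjusted p = 0.0602). Cdk4, the other partner of cyclin D, was the 1 gene of the list called between the compounds (5.26%, beside 10.5% of all genes). It fell by 0.98 ± 0.13 with X-1 and was at −0.18 ± 0.13 with X-3. The difference of 0.80 (limma adjusted p = 0.00885) was called in all 19 alternatives.

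Among genes known as E2F targets at the G1/S transition more fell than rose with each compound. Of 51 tested, 30 were lower, 6 higher and 15 not called with X-1 (70.6% called), with a median of −0.60. With X-3 22 were lower, 6 higher and 23 not called (54.9% called), with a median of −0.30. Over all genes the medians were 0.06 and 0.05, and 56.3% and 55.3% were called. Among 41 of the 51 with a tabled promoter 13 (31.7%) held an E2F motif. Ccna2 (cyclin A2) fell by 2.17 ± 0.13 with X-1 and by 1.99 ± 0.13 with X-3, and Tk1, a thymidine kinase, fell by 2.02 ± 0.12 and 1.74 ± 0.12. Pold1, the catalytic subunit of DNA polymerase delta, fell by 1.74 ± 0.16 and 1.16 ± 0.16, and Pola1, that of DNA polymerase alpha, fell by 1.47 ± 0.35 and 1.84 ± 0.35. The genes that rose included Mcmbp, which binds the MCM helicase (1.69 ± 0.14 and 1.32 ± 0.14), and Orc1, a subunit of the origin recognition complex (1.08 ± 0.14 and 0.90 ± 0.14). With spike-in scaling the Orc1 calls were lost, at 0.13 with each compound, and so was the X-3 call of Mcmbp (0.57, limma adjusted p = 0.0862). Cdc6, which loads the helicase at origins, was 0.43 ± 0.16 higher with X-1 and 0.70 ± 0.16 higher with X-3 but lower with spike-in scaling (−0.55 and −0.20). Its X-1 call was lost in 15 of 19 alternatives, the replicate block (limma adjusted p = 0.0526, in a range of 0.00724 to 0.712) and the leaving out of any control or X-1 array or of X-3 replicate 3 among them. The cyclin E genes parted: Ccne1 fell by 0.67 ± 0.18 with X-1 and by 0.50 ± 0.18 with X-3, while Ccne2 rose by 1.29 ± 0.41 with X-1 and was at 0.09 with X-3 (−0.70 with spike-in scaling). The Ccne1 call with X-3 was lost without any control array, X-1 replicate 1 or 3 or X-3 replicate 2 or 3, and the Ccne2 call with X-1 needed control replicate 1 and X-1 replicates 2 and 3.

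Between the compounds 5 G1/S genes (9.80%) were called, beside 10.5% of all genes, and these 5 were higher with X-3, among them Chaf1a, a chromatin assembly subunit (0.62), Pold1 (0.59) and Prim1, a primase subunit (0.58). The count was 0 or 1 when control replicate 2 or 3, any X-1 array, or X-3 replicate 2 or 3 was left out. The median difference of the list between X-3 and X-1 was 0.47 on slide 1, −0.0018 on slide 2 and 0.01 on slide 3. The 5 called genes were higher with X-3 on every slide.

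Targets of the DREAM complex at the G2/M transition fell furthest. Of 34 tested, 29 were lower and 0 higher with X-1 (median −1.67), and 29 were lower and 1 higher with X-3 (median −1.52), with slide medians of −1.76 to −1.49 and −1.71 to −1.39. That is 85.3% called with X-1 and 88.2% with X-3, beside 56.3% and 55.3% of all genes. Among 28 with a tabled promoter 11 (39.3%) held TTTGAA and 1 (3.57%) an E2F motif, beside 17.1% and 31.7% in the G1/S list. Cenpf, a kinetochore protein, was at −3.28 ± 0.15 with X-1 and at −3.19 ± 0.15 with X-3, each called. Ube2c, an enzyme of the anaphase-promoting complex pathway, fell by 2.89 ± 0.12 with X-1 and was at −2.24 ± 0.12 with X-3, and the mitotic kinase Plk1 fell by 2.74 ± 0.20 and 2.51 ± 0.20. Aurka, another mitotic kinase, was at −2.56 ± 0.19 and −2.59 ± 0.19 and was called with each compound. Ccnb1 (cyclin B1) fell by 1.90 ± 0.18 and 1.43 ± 0.18, and its kinase Cdk1 fell by 1.39 ± 0.18 and 1.02 ± 0.18. Bub1, a spindle checkpoint kinase, was the 1 gene called higher with X-3 (0.39 ± 0.13), a call that needed control replicates 1 and 2 and X-3 replicate 2, and it was lower with spike-in scaling (−0.38) and with the mean of its probes (−0.20). Between the compounds Bub1b and Ube2c were higher with X-3 (0.73 and 0.65), or 5.88% of the list called beside 10.5% of all genes. These calls ended without X-1 replicate 2 or 3, and for Bub1b also without X-3 replicate 2.

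**Figure D5:**
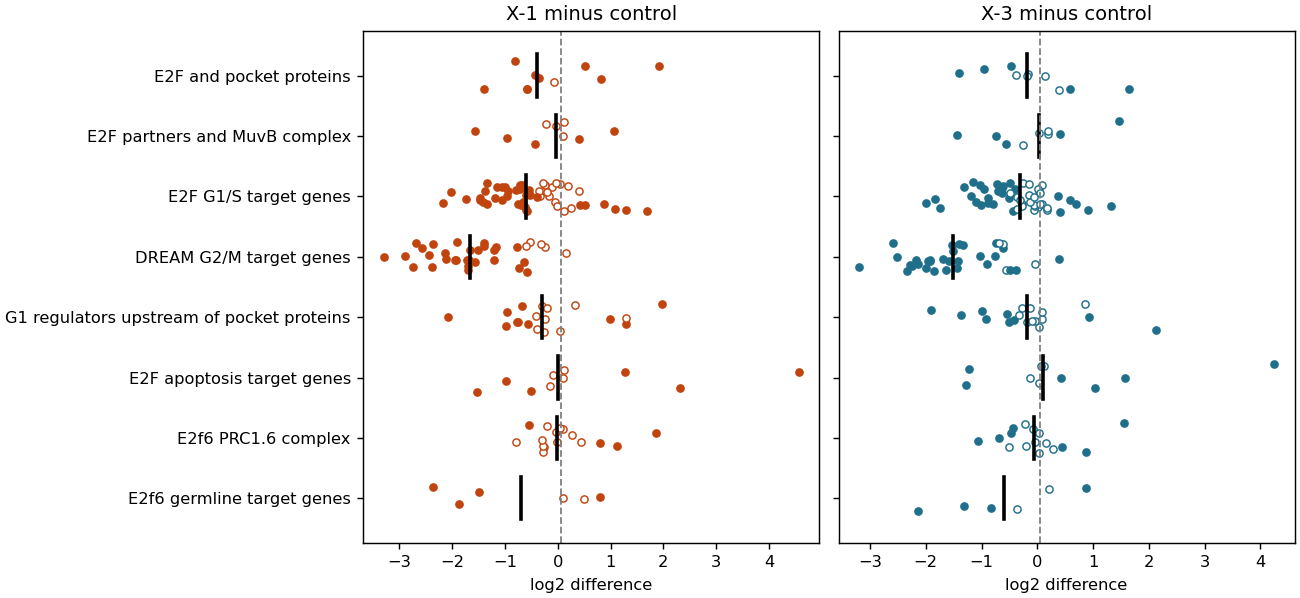
Log2 difference against control (horizontal axes) of each tested gene in the E2F and pocket protein family and 7 lists of related genes (vertical axis), for X-1 in the left panel and X-3 in the right; filled points were called, black bars are list medians and the dashed line is the median of all genes. The G2/M targets lie farthest left (medians −1.67 and −1.52), and the G1/S targets next among the lists of more than 10 genes (−0.60 and −0.30). With spike-in scaling of slides 2 and 3 alone the median of all genes lies at −0.85 for X-1 and −0.65 for X-3.

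E2F1 is also known to activate genes of apoptosis. Of 10 such genes tested out of 11 listed, 3 were higher and 3 lower with X-1 (median 0.01) and 4 higher and 2 lower with X-3 (median 0.09). That is 60% called with each compound, beside 56.3% of all genes with X-1 and 55.3% with X-3. Bnip3, a mitochondrial death protein that is also induced by low oxygen, rose by 4.56 ± 0.22 with X-1 and by 4.24 ± 0.22 with X-3. Map3k5 (ASK1), a stress kinase, rose by 2.31 ± 0.15 and 1.57 ± 0.15, and the difference between the compounds (−0.73, limma adjusted p = 0.0195) needed X-1 replicate 2 and X-3 replicates 2 and 3 for its call. Casp8, an initiator caspase, fell by 0.51 ± 0.12 with X-1 in all 19 alternatives. Apaf1, the core of the apoptosome, fell by 0.97 ± 0.18 and 1.28 ± 0.18 at its brightest probe, but with the mean of its probes it was at 0.09 and 0.07.

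A list of 16 genes covered the Polycomb complex that contains E2f6 (PRC1.6) and related Polycomb and chromatin proteins. With X-1 3 were higher and 1 lower, Phc1 (25% called, beside 56.3% of all genes). With X-3 3 were higher and 4 lower (43.75% called, beside 55.3% of all genes). Mga, the scaffold of PRC1.6 with a DNA-binding domain, rose by 1.87 ± 0.15 with X-1 and by 1.55 ± 0.15 with X-3. Yaf2, a RING-binding subunit, rose by 1.12 ± 0.19 and 0.88 ± 0.19. The Yaf2 calls were lost with spike-in scaling (0.35 and 0.0096), and the X-3 call also with median scaling (0.67), and the Mga call with X-3 was lost with the mean of its probes (0.77, limma adjusted p = 0.0519). Rybp, the relative of Yaf2, rose by 0.79 ± 0.16 with X-1 and by 0.44 ± 0.16 with X-3 but was lower with spike-in scaling (−0.15 and −0.41), and the X-3 call was lost in 13 of 19 alternatives, among them without any single array other than X-1 replicate 1. Hdac2, a histone deacetylase, was at −0.01 with X-1 and fell by 1.07 ± 0.22 with X-3, and the difference of −1.06 between the compounds (limma adjusted p = 0.0203) needed the same 3 arrays for its call. Phc1, a Polycomb subunit, fell by 0.54 ± 0.18 with X-1 and by 0.48 ± 0.18 with X-3, calls lost in 6 and 11 of 19 alternatives, among them without control replicate 1 or 2 or any X-1 array in either case, and for X-3 without its own replicate 2 or 3. Ehmt1, a histone methyltransferase, fell by 0.69 ± 0.15 with X-3 in all 19 alternatives. Cbx3, a heterochromatin protein, was 0.54 higher with X-3 than with X-1 at its brightest probe (limma adjusted p = 0.0352), but was at −0.07 with the mean of its probes, and the call needed replicates 2 and 3 of all groups. Of 15 germline genes that E2f6 is known to silence in somatic cells, 9 had no kept probe under their names and were not tested. The counts rest on the other 6: 3 lower (Ddx4, Tdrkh and Stag3) and 1 higher (Taf7l) with each compound (66.7% called, beside 56.3% and 55.3% of all genes). Ddx4, an RNA helicase of germ cells, fell by 2.35 ± 0.26 with X-1 and by 2.13 ± 0.26 with X-3. Tdrkh, a piRNA pathway protein, fell by 1.86 ± 0.16 and 1.32 ± 0.16, and Stag3, a cohesin subunit of meiosis, fell by 1.49 ± 0.22 and 0.84 ± 0.22, calls that ended with normexp on median signals (−0.59 and −0.40). Taf7l rose by 0.80 ± 0.18 and 0.87 ± 0.18, and was lower with spike-in scaling (−0.23 and −0.017).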

How the data were processed

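Total RNA (0.5 µg) was amplified and labelled with Cy3, per the labels' protocols. The deposited scanner files hold spot intensity, background-subtracted within each array and not scaled between arrays, per the file headers, which name Agilent Feature Extraction 10.5.1.1 (replicate 1) and 10.7.3.1 (replicates 2 and 3). Version 9.1 stands in the submitters' processing notes. The deposited series table holds a score per probe, found from its values to be standardized within each array, and was used only as an alternative. Log2 intensity was reduced by the 75th percentile of its array. A probe was kept when all 3 arrays of any group had it well above background (25288 probes), and the brightest represented its gene. Of 41174 probes for genes, 214 were left out because every spot was an outlier on at least 1 array. Probe names came from the replicate 1 files, by accession, symbol or synonym through the RefSeq table. One limma 3.58.1 fit (R 4.3.3, lmFit and eBayes, two-sided) covered the 9 arrays, with no term but the group. The series design text calls the experiments independent; beyond that, p-values measure only the spread between these samples. The number of arrays limits the precision.

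Same-numbered arrays shared a slide. Across genes, what set same-numbered arrays off from the mean of their group correlated at 0.517, 0.318 and 0.271 for X-1 with control, at 0.238, 0.112 and 0.230 for X-3 with control, and at −0.041, −0.182 and 0.155 for X-3 with X-1, so the replicate was tried as a block. The members and lists were chosen with earlier results of these data known. Named genes were the 10 members, 21 fixed genes of the pathway, and from each list the 3 called genes with the largest difference per direction; some genes this rule names are not reported here. The normexp alternative used median signals with an offset of 50, since mean signals are a column of the replicate 1 files only. The fit was tested on simulated data.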

Additional observations from a re-analysis of the deposited data

How the results depend on the processing

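The 19 alternatives (10 settings and the leaving out of each of 9 arrays) gave 894 values of member differences. Of 520 for differences that had been called, 457 kept direction and call, 58 lost the call and 5 turned sign. Of 374 for differences that had not been called, 352 stayed so, 29 of them with the other sign, and 22 were called, 2 of them with the other sign. Ranges of differences leave out the deposited scores, which are in another unit. For pathway genes 1581 of 1805 values of called differences kept direction and call, 210 lost the call and 14 turned sign; of 1216 for differences not called, 52 were called, 8 of them with the other sign, and 66 turned sign without a call. Genes called between X-3 and X-1 numbered 1764, but 461 with median scaling, 1042 with normexp, 543 with no filter on dim probes, 709 with only the compared groups in the fit, 6421 with slides 2 and 3 alone, and 583 to 3408 with 1 array left out. Members called between X-3 and X-1 were 2, and 4 with slides 2 and 3 alone. Members called with X-1 were 9, but 5 with no filter and 5 to 9 with 1 array left out. Over all genes 9417 of 16736 were called with X-1, 8706 of 27617 with no filter, and 8237 to 10922 of 16736 with 1 array left out. Member probes called with X-1 were 15, where 54.8% of the 25288 kept probes were called, and 9 to 15 with 1 array left out. Between X-3 and X-1 they were 3, where 9.07% of kept probes were called, and 2 to 5 with 1 array left out. Calls over all kept probes were not counted with 1 array left out. These 2 ranges thus cannot be told apart from a change across the whole array.

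Among members, and among pathway genes called before or after, spike-in scaling turned the sign, against control, of E2f1 (−0.39), its probe 2 (−0.26), E2f6 (−0.0046), Tfdp1 (−0.80), Lin54 (−0.84), Rbbp4 (−0.34), Cdc6 (−0.55), Bub1 (−0.82), Rybp (−0.15) and Taf7l (−0.23) with X-1, and of E2f2 (−0.056), E2f4 (−0.59), E2f6 (−0.47), E2f6 probe 2 (−0.73), Lin37 (−0.68), Lin54 (−0.94), Mybl2 (−0.34), Ccne2 (−0.70), Cdc6 (−0.20), Prim1 (−0.77), Bub1 (−0.38), Rybp (−0.41) and Taf7l (−0.017) with X-3. The mean of kept probes turned E2f3 (1.18 with X-1, 1.25 with X-3), Rbbp4 (−0.012 and −0.36), Apaf1 (0.087 and 0.075), Bub1 with X-3 (−0.20) and Cbx3 between X-3 and X-1 (−0.074). Spike-in scaling was fitted to slides 2 and 3 alone and sets those arrays to added RNA. Against the 75th percentile on the same slides it moves every gene by the same amount. Against the main values the leaving out of slide 1 also enters, and that differs between genes. E2f6 probe 2 with X-3 was already at −0.03 with slides 2 and 3 at the 75th percentile. Genes in the spike-in fit shared an SE of 0.30, so its adjusted p-values do not measure the spread of a single gene. For the other sign turns the cause was not tested.

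With the replicate number as a block, members called were 8 with X-1, 5 with X-3 and 2 between X-3 and X-1. Of all 16736 genes 9955, 9735 and 1728 were called in these comparisons. The block ended the calls of E2f3 (limma adjusted p = 0.0505), E2f1 probe 2 (0.0593) and Cdc6 (0.0526) with X-1, and of E2f1 probe 2 (0.0729), Lin37 (0.0519), Pold1 (0.0728) and Prim1 (0.0594) between X-3 and X-1. It added E2f6 probe 2 (0.0499) and Ccne2 (0.00965) between X-3 and X-1, and changed no other call among the members and named genes. E2f4 had the widest error of the kept member probes (SE 0.57), with the signal of slide 1 apart from the others.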

Other observations

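Genes with the array pattern most like 3 of the members were found by Pearson r over the 9 arrays, as a description only, since the arrays fall into groups and share them. For E2f2 they were Tshz1 (0.987), the probe named LTO1 (0.985) and Slc7a11, a cystine transporter (0.985), and 1.62% of genes had r above 0.9. For Rbl1 they were Fkbp7 (0.994), Nt5dc1 (0.993) and Asah1, acid ceramidase (0.992), and 10.6% of genes had r above 0.9. For E2f1 they were Dnali1 (0.979), Lrrc73 (0.979) and Dnlz (0.978), and 1.28% of genes had r above 0.9.

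The 3 probes of the family that were not kept entered no comparison. E2f3 probe 4 and E2f5 probe 3 were not well above background on any of the 9 arrays. E2f7 probe 2 was well above background on control replicates 1 and 2 and on X-3 replicate 2, with log2 levels of −5.47, −5.89 and −5.35 there.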
